A study of Homo sapiens with 12 samples.

Results

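Transcripts of 10 genes that build epithelial junctions were followed in CAMA-1 cells under abemaciclib, fulvestrant or both. The genes were taken by symbol from the 60612 rows of the count table that carry a gene name. They are the cadherin gene CDH1 and its cytoplasmic partner CTNNB1, the adhesion molecule gene EPCAM, the claudin genes CLDN3, CLDN4 and CLDN7, the occludin gene OCLN, the scaffold genes TJP1 and TJP3, and F11R, which encodes the junctional adhesion molecule JAM-A. All 10 were among the 11803 genes that held enough reads to be tested.

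Neighbouring epithelial cells are joined by adherens junctions, in which cadherins bind across the gap and catenins tie them to actin, and by tight junctions, in which claudins and occludin seal the space between cells. Zonula occludens scaffolds such as TJP1 and TJP3 anchor the tight junction strands to the cytoskeleton. Luminal breast cells keep many of these components, and their loss accompanies a shift towards a mesenchymal state. β-catenin, the product of CTNNB1, also acts in the nucleus as the coactivator of Wnt signalling.

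CAMA-1 is an established human breast cancer line that expresses the oestrogen receptor (ER), and its genotype is labelled wild type in all libraries. CDH1 is known to be mutated in this line, and a count of transcript ends does not show whether an intact protein is made. Cells were given DMSO as vehicle, 100 nM abemaciclib, which inhibits CDK4/6, 5 nM fulvestrant, which degrades ER, or both agents (the combination), for which the labels do not restate doses. RNA was profiled after 5 days with a 3′ method that primes at the poly(A) tail. Each of the 4 groups held 3 libraries, labelled as biological replicates of a single line.

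Total counts ranged from 3299119 to 5164667 per library, and for all 12 the most highly correlated library came from the same group. Fulvestrant libraries were the least alike, with a correlation across genes as low as 0.970, against a highest value of 0.976 between libraries of different groups. Levels are given as CPM, that is, counts scaled to a common library total. A rise in CPM therefore does not tell more transcript per cell from less of other RNA. Libraries of DMSO did not overlap those of abemaciclib, fulvestrant or the combination for 54.2%, 54.7% and 62.1% of all genes tested. Between the combination and abemaciclib this share was 48.5%, between the combination and fulvestrant 14.6%, and between the single drugs 40.2%. Separate ranges are therefore common in these data. Luminal markers summed to between 5328 and 7285 CPM in every library, whereas basal markers did not exceed 2.05 CPM, endothelial markers 0.846 CPM and leukocyte markers 0.388 CPM. CDH5, a defining endothelial marker, had no read in any library.

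CLDN3 and CLDN4 lie beside each other on chromosome 7 in GRCh38 (GENCODE v44). CLDN3 is a gene of 1 exon on the minus strand at chr7:73768997-73770270, and CLDN4 lies on the plus strand at chr7:73799542-73832690. The gap of 29271 bases between them holds 0 other protein-coding genes. CLDN7 lies elsewhere, at chr17:7259903-7263983 on the minus strand. RefSeq start-site windows (GRCh38.p14, 250 bases before to 50 bases after the start) were available for 7 of the 10 genes, and 1 for each of the 3 claudins is shown because CLDN3 and CLDN4 rose with each drug whereas CLDN7 did not pass the test against DMSO. Capitals mark the E-box letters CACCTG, searched on both strands. They also mark the nuclear receptor half-site AGGTCA, likewise on both strands, and every window reads from 5′ to 3′ on the strand of its gene. The CLDN3 window covers chr7:73770221-73770520, the CLDN4 window chr7:73830746-73831045 and the second CLDN7 window chr17:7262429-7262728.
CLDN3: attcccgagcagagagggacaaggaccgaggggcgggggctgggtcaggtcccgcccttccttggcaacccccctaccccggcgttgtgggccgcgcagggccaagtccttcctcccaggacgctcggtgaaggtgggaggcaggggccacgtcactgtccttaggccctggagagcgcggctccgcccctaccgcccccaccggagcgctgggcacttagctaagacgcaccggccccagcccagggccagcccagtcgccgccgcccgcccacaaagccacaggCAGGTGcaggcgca
CLDN4: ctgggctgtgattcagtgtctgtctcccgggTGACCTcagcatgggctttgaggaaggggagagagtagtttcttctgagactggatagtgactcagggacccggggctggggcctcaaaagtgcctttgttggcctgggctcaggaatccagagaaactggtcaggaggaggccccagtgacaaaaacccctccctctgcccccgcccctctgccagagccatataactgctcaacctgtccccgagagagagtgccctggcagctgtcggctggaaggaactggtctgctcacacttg
CLDN7: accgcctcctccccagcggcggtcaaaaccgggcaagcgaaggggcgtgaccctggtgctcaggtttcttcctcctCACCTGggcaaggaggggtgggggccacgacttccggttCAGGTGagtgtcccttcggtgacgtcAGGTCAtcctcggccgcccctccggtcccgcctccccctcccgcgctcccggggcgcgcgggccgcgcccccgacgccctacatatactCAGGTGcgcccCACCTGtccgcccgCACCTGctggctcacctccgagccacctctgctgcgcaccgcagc

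The CLDN3 window held 1 E-box and the CLDN4 window 1 half-site, and this CLDN7 window held 5 E-boxes and 1 half-site. The other CLDN7 window, chr17:7263164-7263463, held 0 E-boxes and 1 half-site, so the 2 windows of that gene differed. E-boxes of this kind are bound by the SNAI and ZEB repressors. Across the 13 windows of the 7 genes, 6 held an E-box and 4 a half-site, against 20.6% and 13.8% of all 35116 RefSeq windows of the same length. E2F letters (TTTGGCGC or TTTCCCGC) and the grainyhead letters AACCGGTT were searched on both strands too, and 0 of the 13 windows held either. Over all windows the shares were 0.652% and 1.63% for the E2F forms and 0.134% for grainyhead. These matches describe letters in a window and show no binding. CDH1, EPCAM and F11R had no window here.

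**Figure D1:**
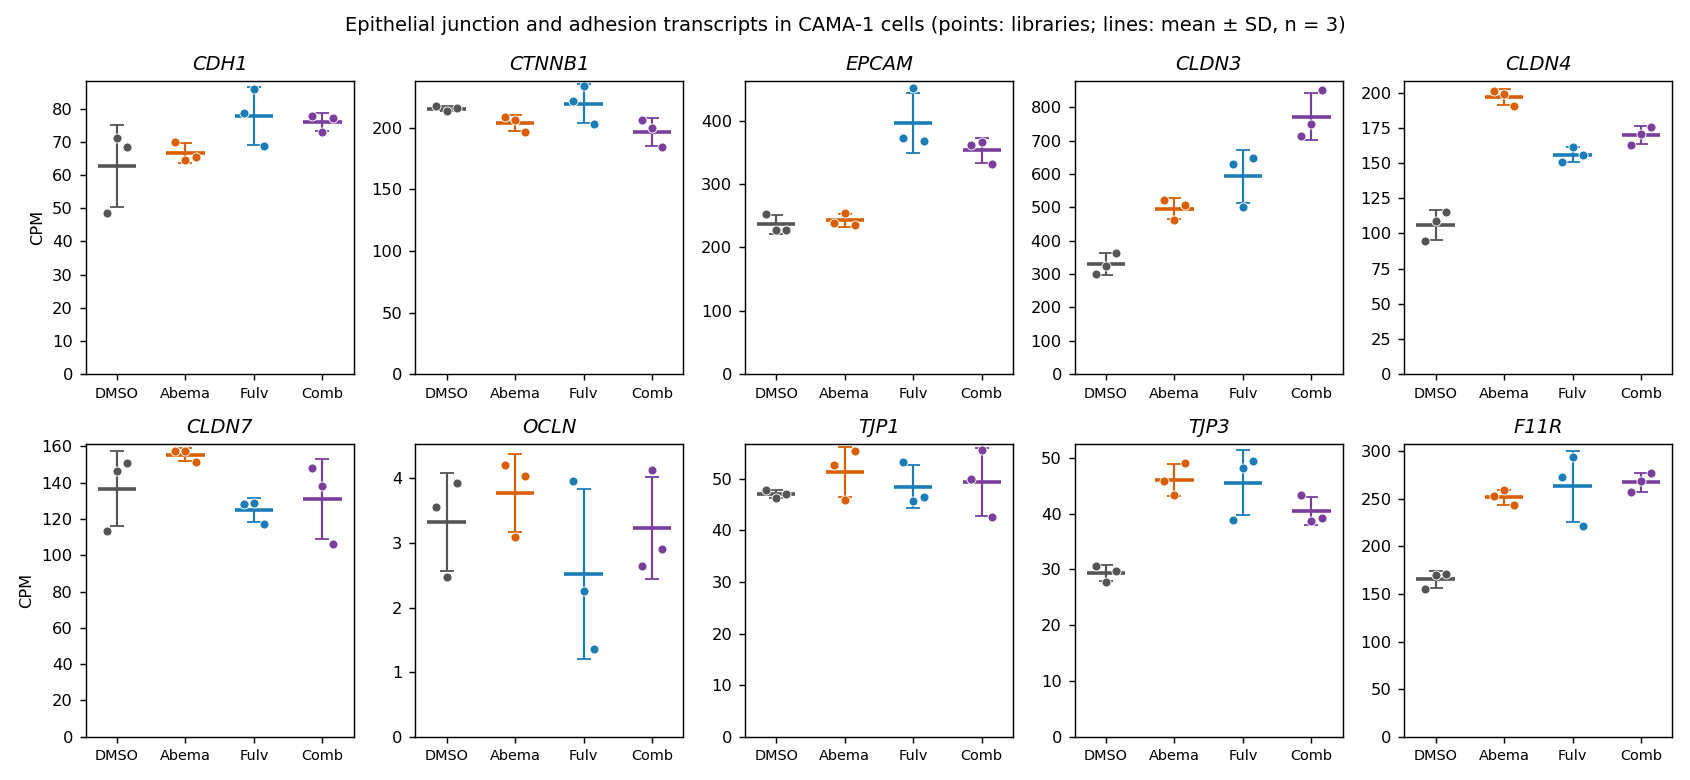
CPM of the 10 junction and adhesion genes in each of the 12 libraries, by treatment (Abema, abemaciclib; Fulv, fulvestrant; Comb, combination), with points for libraries, thick lines for means and bars for SD (n = 3); every vertical axis starts at 0. CLDN3 sits lowest in DMSO (mean 330 CPM) and highest in the combination (772 CPM), CLDN4 is highest with abemaciclib (197 CPM), and CTNNB1 and TJP1 stay within narrow ranges.

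The adherens junction genes were considered first. CDH1 encodes E-cadherin, the cadherin that holds epithelial cells together (chr16:68737292-68835537). Its level was 48.7, 71.1 and 68.4 CPM in the DMSO libraries, 70.0, 64.5 and 65.4 CPM with abemaciclib, 78.6, 86.0 and 68.8 CPM with fulvestrant, and 77.7, 73.0 and 77.3 CPM in the combination. DMSO replicate 1 was the lowest of the 12 libraries. The DMSO range overlapped those of abemaciclib and fulvestrant and lay wholly below that of the combination. CDH1 rose by 0.29 ± 0.12 on the log2 scale with fulvestrant (SE, adjusted p = 0.0358), but this call was lost without DMSO replicate 1 (0.16, adjusted p = 0.235), without fulvestrant replicate 1 (adjusted p = 0.0754), without fulvestrant replicate 2 (0.22, adjusted p = 0.155), in a fit of those groups alone (adjusted p = 0.0867) and with DESeq2 (adjusted p = 0.0816). In the combination the difference was 0.26 ± 0.11 (adjusted p = 0.0535), which passed with upper-quartile scaling (adjusted p = 0.0330), in the unfiltered table (adjusted p = 0.0441) and on libraries thinned to a common total (adjusted p = 0.0134), and without DMSO replicate 2 (adjusted p = 0.0250) or 3 (adjusted p = 0.0374). With abemaciclib it was 0.07 ± 0.12 (adjusted p = 0.643), and its sign turned without DMSO replicate 1 (−0.06). In order of mean level the groups ran DMSO, abemaciclib, combination and fulvestrant, and no neighbours in that order passed the test.

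CTNNB1 (chr3:41194741-41260096) passed in none of the comparisons. Its level was 218, 213 and 216 CPM in DMSO, 209, 206 and 196 CPM with abemaciclib, 222, 234 and 203 CPM with fulvestrant, and 206, 200 and 185 CPM in the combination. The abemaciclib and combination libraries all lay below the DMSO libraries, by small margins, while the fulvestrant libraries overlapped them. The log2 difference from DMSO was −0.08 with abemaciclib (95% interval −0.24 to 0.08), 0.03 with fulvestrant (−0.13 to 0.19) and −0.13 in the combination (−0.29 to 0.03). As folds these intervals ran from 0.847 to 1.06, from 0.911 to 1.14 and from 0.817 to 1.02.

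EPCAM encodes an epithelial surface adhesion molecule that binds claudin-7 (chr2:47345158-47387601). It measured 253, 228 and 228 CPM in DMSO and 239, 255 and 235 CPM with abemaciclib. These ranges overlapped, and the log2 difference was 0.04 ± 0.08 (adjusted p = 0.733, 95% interval −0.13 to 0.21). With fulvestrant it measured 372, 451 and 367 CPM, and in the combination 362, 366 and 331 CPM, so that each library given fulvestrant lay above each library without it. EPCAM rose by 0.75 ± 0.08 with fulvestrant (adjusted p = 2.43e-08) and by 0.58 ± 0.08 in the combination (adjusted p = 1.43e-06). The combination also exceeded abemaciclib alone, by 0.54 ± 0.08 (adjusted p = 1.07e-05). It lay below fulvestrant alone in all libraries, but this difference of −0.17 ± 0.08 did not pass (adjusted p = 0.436).

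The claudins, whose extracellular loops form the tight junction seal, moved differently from one another. CLDN3 measured 300, 325 and 364 CPM in DMSO, 521, 461 and 506 CPM with abemaciclib, 630, 501 and 648 CPM with fulvestrant, and 715, 750 and 851 CPM in the combination. Means rose from DMSO through abemaciclib and fulvestrant to the combination, and the ranges overlapped only between the single drugs, where fulvestrant replicate 2 lay among the abemaciclib libraries. CLDN3 rose by 0.59 ± 0.10 with abemaciclib (adjusted p = 2.42e-05), by 0.85 ± 0.10 with fulvestrant (adjusted p = 6.74e-08) and by 1.23 ± 0.10 in the combination (adjusted p = 8.73e-11). The last value is 2.34-fold (95% interval 2.04 to 2.68) and was the largest difference from DMSO among the 10 genes in this fit. The combination exceeded abemaciclib by 0.64 ± 0.09 (adjusted p = 9.12e-06). It also exceeded fulvestrant, by 0.38 ± 0.09 (adjusted p = 0.0313), but this call was lost in a fit of those groups alone (adjusted p = 0.174), with a filter of at least 10 counts in every library (adjusted p = 0.0595), and without fulvestrant replicate 1 (adjusted p = 0.0594), fulvestrant replicate 2 (adjusted p = 0.170), combination replicate 2 (adjusted p = 0.0970) or combination replicate 3 (adjusted p = 0.246).

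CLDN4 measured 94.4, 109 and 115 CPM in DMSO, 201, 199 and 190 CPM with abemaciclib, 151, 161 and 155 CPM with fulvestrant, and 163, 171 and 175 CPM in the combination. No library of one group fell within the range of another, and abemaciclib, not the combination, gave the highest values. CLDN4 rose by 0.89 ± 0.08 with abemaciclib (adjusted p = 1.37e-09), by 0.55 ± 0.08 with fulvestrant (adjusted p = 3.37e-06) and by 0.67 ± 0.08 in the combination (adjusted p = 9.38e-08). It was higher with abemaciclib than with fulvestrant by 0.34 ± 0.08 (adjusted p = 0.00216). The combination was lower than abemaciclib by a log2 difference of −0.22 ± 0.08 (adjusted p = 0.0390), a call lost in the unfiltered table (adjusted p = 0.0734) and whenever any of the 6 libraries compared was left out (adjusted p from 0.0531 to 0.137). Between the combination and fulvestrant the difference was 0.12 ± 0.08 (adjusted p = 0.609).

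CLDN7 encodes the claudin that associates with EPCAM. It measured 113.1, 146.3 and 150.5 CPM in DMSO, 157.3, 157.4 and 151.4 CPM with abemaciclib, 128, 129 and 117 CPM with fulvestrant, and 148, 138 and 106 CPM in the combination. The abemaciclib libraries lay above all others, though only just above DMSO replicate 3, and DMSO replicate 1 and combination replicate 3 were the lowest of the 12. Differences from DMSO were 0.18 ± 0.11 with abemaciclib (adjusted p = 0.196), −0.14 ± 0.11 with fulvestrant (adjusted p = 0.303) and −0.07 ± 0.11 in the combination (adjusted p = 0.609). CLDN7 was higher with abemaciclib than with fulvestrant by 0.32 ± 0.11 (adjusted p = 0.0318), which did not pass with DESeq2 (adjusted p = 0.0561) or when any of those 6 libraries was left out (adjusted p from 0.0529 to 0.105). Its last exon shares 38 bases with ELP5 on the opposite strand, and its other exons share 269 bases with a coding gene on the same strand, so a few of its reads could have been assigned otherwise.

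The 3′ method yields about 1 read per transcript whatever its length, so the CPM of the 3 claudins can be added. CLDN3 made up 56.0% to 59.1% of their sum in DMSO and 56.4% to 59.7% with abemaciclib. With fulvestrant the share was 63.3% to 70.4%, and in the combination 69.7% to 75.1%. Libraries given fulvestrant thus had a larger CLDN3 share than any library without it, while abemaciclib libraries overlapped DMSO.

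Occludin, a tetraspan partner of the claudins in tight junction strands, was close to the limit of detection. OCLN (chr5:69492292-69558104) held between 6 and 21 reads per library, or 3.56, 2.47 and 3.93 CPM in DMSO, 4.20, 3.09 and 4.04 CPM with abemaciclib, 3.95, 2.26 and 1.37 CPM with fulvestrant, and 2.65, 4.14 and 2.91 CPM in the combination. All groups overlapped. The 95% intervals of the log2 difference from DMSO ran from −0.53 to 0.94 with abemaciclib, from −1.19 to 0.43 with fulvestrant and from −0.77 to 0.74 in the combination. At this depth a 1.5-fold change of OCLN in either direction would have lain inside the combination interval (0.588-fold to 1.67-fold).

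The scaffolds TJP1 and TJP3 are related zonula occludens proteins that link tight junction strands to actin. TJP1 (chr15:29699367-29968915) measured 47.8, 46.4 and 47.1 CPM in DMSO, 52.6, 45.9 and 55.3 CPM with abemaciclib, 53.4, 45.7 and 46.5 CPM with fulvestrant, and 50.04, 55.6 and 42.5 CPM in the combination. The DMSO libraries, which were close together, lay inside the range of each treated group. Differences from DMSO were 0.12 ± 0.12, 0.05 ± 0.12 and 0.07 ± 0.12 in the same order (adjusted p = 0.420, 0.775 and 0.642), and their 95% intervals stayed between −0.20 and 0.36.

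TJP3 (chr19:3708362-3750813) measured 30.6, 27.8 and 29.8 CPM in DMSO, 45.8, 43.3 and 49.0 CPM with abemaciclib, 38.8, 48.2 and 49.5 CPM with fulvestrant, and 43.3, 38.7 and 39.2 CPM in the combination. Every treated library lay above every DMSO library, and the treated groups overlapped one another. TJP3 rose by 0.65 ± 0.12 with abemaciclib (adjusted p = 9.20e-05), by 0.64 ± 0.12 with fulvestrant (adjusted p = 9.00e-05) and by 0.46 ± 0.12 in the combination (adjusted p = 0.00216). Its last exon shares 42 bases with APBA3 on the opposite strand, and whether counting used strand was not stated in the sources used here.

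F11R, the gene of the immunoglobulin-type adhesion protein JAM-A (chr1:160995211-161021343), measured 155, 170 and 171 CPM in DMSO, 253, 259 and 243 CPM with abemaciclib, 273, 294 and 221 CPM with fulvestrant, and 257, 269 and 277 CPM in the combination. Every treated library lay above every DMSO library, and fulvestrant replicate 3 was the lowest of the treated ones. F11R rose by 0.60 ± 0.09 with abemaciclib (adjusted p = 3.65e-06), by 0.67 ± 0.09 with fulvestrant (adjusted p = 4.48e-07) and by 0.69 ± 0.09 in the combination (adjusted p = 1.89e-07). The rise with fulvestrant was 0.78 without replicate 3. The gene shares 1853 exonic bases, 950 of them in its last exon, with another coding gene on the same strand, so its count is uncertain to that extent.

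**Figure D2:**
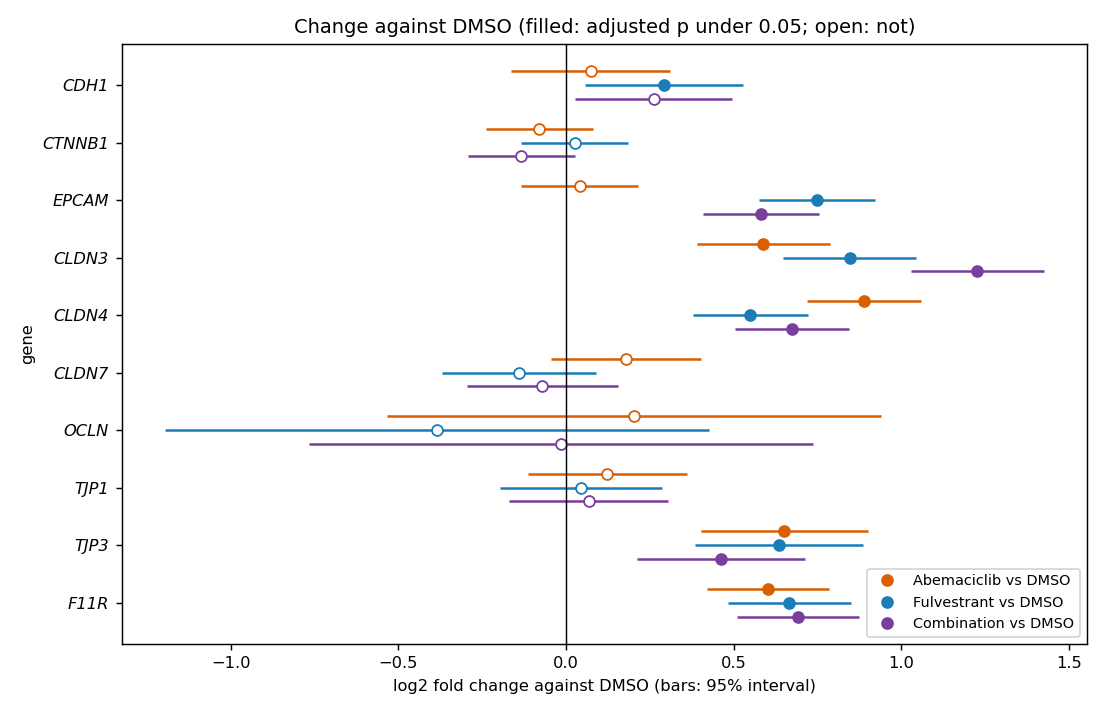
Log2 fold change against DMSO for the 10 genes with abemaciclib, fulvestrant or the combination, as points with 95% intervals; filled points had an adjusted p under 0.05 (edgeR quasi-likelihood test, 3 libraries per group). CLDN3, CLDN4, TJP3 and F11R have filled points in all 3 comparisons, EPCAM only where fulvestrant was given and CDH1 only with fulvestrant alone, and OCLN has the widest intervals.

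Against DMSO, the genes that passed the test were higher in each comparison and none was lower. With abemaciclib, 4 of the 10 rose (CLDN3, CLDN4, TJP3 and F11R), where 41.2% of all genes tested passed in either direction. With fulvestrant, 6 rose, where 51.0% passed; CDH1 and EPCAM joined the 4 genes named. In the combination 5 rose, all of these but CDH1, where 55.2% passed. The shares of the 10 genes that passed were thus near those over all genes. Their median log2 fold change was 0.19 with abemaciclib, 0.42 with fulvestrant and 0.36 in the combination, beside medians of 0.0005, 0.0075 and 0.0103 over all genes tested. These 3 comparisons share the DMSO libraries, so their values are not independent of one another. DMSO replicate 1, the lowest library for CDH1, was also the lowest DMSO library for CLDN3, CLDN4, CLDN7 and F11R, and without it the log2 difference with abemaciclib was 0.53 for CLDN3 and 0.82 for CLDN4.

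The treated groups were then compared with one another. Between the combination and abemaciclib, 3 of the 10 passed (EPCAM and CLDN3 higher, CLDN4 lower), against 33.5% of all genes. CLDN7 was also lower in every combination library, by a log2 difference of −0.25 ± 0.11 (adjusted p = 0.0813), which passed in the unfiltered table (adjusted p = 0.0355), in a fit of those groups alone (adjusted p = 0.0210) and without combination replicate 1 (adjusted p = 0.0300). Between the combination and fulvestrant, CLDN3 alone passed, against 1.92% of all genes. The single drugs differed in 4 genes, EPCAM and CLDN3 being lower and CLDN4 and CLDN7 higher with abemaciclib, against 29.0% of all genes. Between the combination and abemaciclib the share of the 10 genes (30%) was near that over all genes. Between the single drugs it was 40% beside 29.0%, a gap too small to read in 10 genes. The single call between the combination and fulvestrant is too few to set against 1.92%. The call of CLDN4 between the combination and abemaciclib and that of CLDN7 between the single drugs rested on all 6 libraries, as given above. EPCAM was the clearest difference between the single drugs, at −0.71 ± 0.08 (adjusted p = 2.34e-07). CLDN3 was lower with abemaciclib by a log2 difference of −0.26 ± 0.09 (adjusted p = 0.0430), which did not pass with DESeq2 (adjusted p = 0.0676), in a fit of those groups alone (adjusted p = 0.0582) with at least 10 counts in every library (adjusted p = 0.0534), or without any abemaciclib library or fulvestrant replicate 1 or 3 (adjusted p from 0.0593 to 0.191). For TJP3 and F11R the single drugs differed by 0.02 (95% interval −0.22 to 0.25) and −0.06 (−0.24 to 0.12).

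Whether the change with abemaciclib was the same in the presence of fulvestrant was then tested as an interaction, which is the log2 difference between combination and fulvestrant minus that between abemaciclib and DMSO. Of the 10 genes, 3 passed (CLDN4, TJP3 and F11R), all with negative values, where 21.1% of all genes passed. CLDN4 changed by 0.89 with abemaciclib alone and by 0.12 when it was added to fulvestrant, an interaction of −0.77 ± 0.12 (adjusted p = 2.29e-05). For TJP3 the changes were 0.65 and −0.17, with an interaction of −0.82 ± 0.17 (adjusted p = 7.78e-04). For F11R they were 0.60 and 0.03, with an interaction of −0.58 ± 0.12 (adjusted p = 0.00128). CLDN3, in contrast, changed by 0.59 and 0.38, and its interaction of −0.21 ± 0.13 did not pass (adjusted p = 0.286, 95% interval −0.48 to 0.07). EPCAM had a value of −0.21 ± 0.12 (adjusted p = 0.222), and the other 5 genes had adjusted p values from 0.659 to 0.860.

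**Figure D3:**
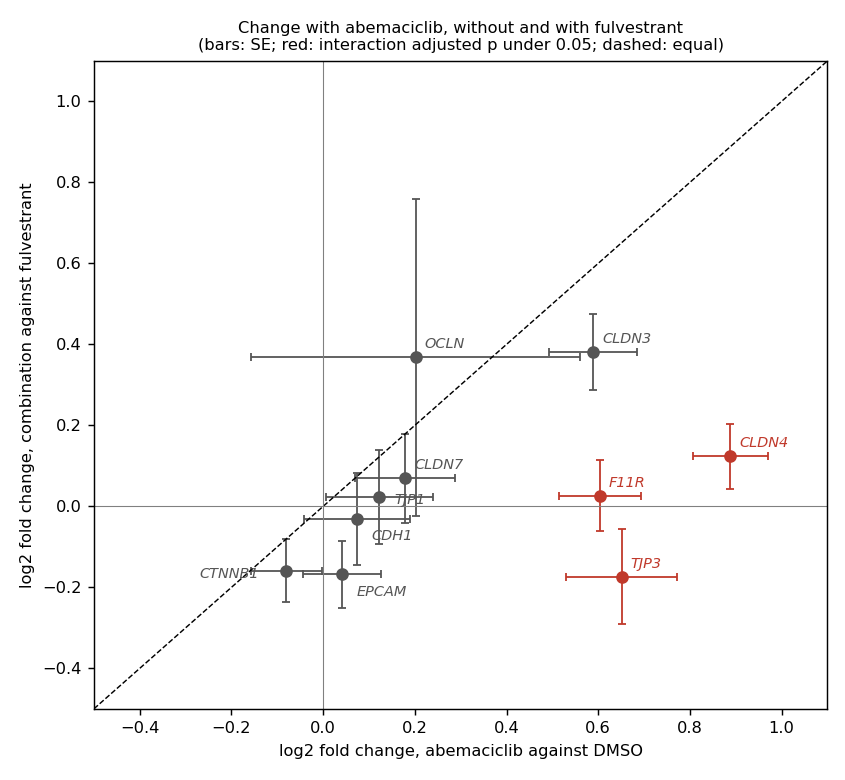
Log2 fold change with abemaciclib alone (horizontal axis) against that of adding abemaciclib to fulvestrant (vertical axis), with SE bars; the dashed line marks equal changes, and red marks genes whose interaction had an adjusted p under 0.05. CLDN4, TJP3 and F11R lie well below the line, at 0.89 and 0.12, 0.65 and −0.17, and 0.60 and 0.03, whereas CLDN3 lies closer to it.

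For each gene the tested gene with the most similar profile over the 4 group means was sought. Candidates were 8463 other genes with a mean of at least 10 CPM over the 12 libraries. The measure was the smallest root mean square difference of centred log2 means. The closest to EPCAM was CD164 (difference 0.0249), with means of 77.4, 78.3, 134 and 118 CPM in DMSO, abemaciclib, fulvestrant and combination. CLDN3 was matched by KLHL9 (0.0216), with 58.6, 86.1, 101 and 137 CPM. CLDN4 was matched by WDR11 (0.0232), with 11.4, 21.5, 17.2 and 17.9 CPM. The closest were STX3 for F11R, STK36 for TJP3, STXBP3 for CLDN7, MSI2 for TJP1, SLC66A1 for CTNNB1, POLR1B for OCLN and NOP14-AS1 for CDH1. With so few group means, close profiles are easily found, and the groups of CTNNB1, TJP1 and OCLN did not differ past the test.

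The wider junction lists moved in the same main direction. Outside the 10 genes, 34 of 57 listed junction genes could be tested. With abemaciclib 20 were higher and 1 lower, with fulvestrant 24 and 2, and in the combination 21 and 1, with median log2 fold changes of 0.40, 0.58 and 0.59. Over all genes 41.2%, 51.0% and 55.2% passed in either direction, the shares to set beside the counts of every list below. In the interaction 14 of the 34 passed, all negative, where 21.1% of all genes passed. The 34 include CLDN1, CLDN8, GJB1, CGNL1, PLEKHA7 and ILDR1. For none of these did the DMSO libraries alone hold enough reads to be tested. Each was tested only because of the groups in which it was high, so its part in these counts and medians is a description.

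Among adherens junction genes, 12 of 14 were tested, including CDH1 and CTNNB1. With abemaciclib 6 were higher and 1 lower, with fulvestrant 8 and 1, and in the combination 5 and 1. The abemaciclib counts fell to 4 and 0 with DESeq2, on thinned libraries, and without DMSO replicate 3 or abemaciclib replicate 2. JUP, which encodes plakoglobin, a catenin of both adherens junctions and desmosomes, rose from 221 CPM in DMSO to 393, 505 and 460 CPM with abemaciclib, fulvestrant and the combination (adjusted p = 0.00265, 1.50e-04 and 3.15e-04). NECTIN4, an immunoglobulin-type adhesion gene, rose from 45.7 to 93.3, 102 and 127 CPM (adjusted p = 1.37e-09, 5.79e-11 and 2.43e-13). VCL, the gene of the actin linker vinculin, rose by 0.74, 0.75 and 0.69, and CTNND1, the gene of p120-catenin, by 0.78 in the combination. CDH3, the gene of P-cadherin, fell, from 16.3 CPM to 11.3, 10.2 and 7.95 CPM (adjusted p = 0.0159, 0.00262 and 2.51e-05), the first of which did not pass with DESeq2 (adjusted p = 0.0572) or without DMSO replicate 3 or abemaciclib replicate 2 (adjusted p = 0.102 and 0.0760).

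Of 18 claudin genes, 7 were tested. With abemaciclib 3 were higher, and with fulvestrant and in the combination 4 were, while 0 were lower in each. With at least 10 counts in every library 2 were higher in each comparison. Besides CLDN3 and CLDN4, these were CLDN1 and CLDN8, both below 10 CPM and named after their values were seen. Both held too few reads in DMSO to be tested but for the groups in which they were high, so their calls are a description. CLDN1 had 0 reads in all DMSO libraries and 14 to 18 reads with abemaciclib (mean 3.55 CPM), at least 5.12-fold higher when DMSO is set at a floor of 3 counts per library. It held 2 to 4 reads with fulvestrant (mean 0.769 CPM) and 1 to 7 in the combination (mean 0.843 CPM), both near that floor although called. CLDN8 averaged 0.891 CPM in DMSO, 0.874 CPM with abemaciclib, 5.02 CPM with fulvestrant and 5.84 CPM in the combination.

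Other tight junction genes numbered 15 tested of 18, with 9 higher in each comparison with DMSO and 0, 1 and 0 lower. The cingulin genes, whose products tie tight junctions to actomyosin, rose with every treatment. CGN went from 52.0 CPM to 95.4, 93.0 and 103 CPM (adjusted p = 4.28e-08, 5.40e-08 and 1.78e-09), and CGNL1 from 3.75 to 12.5, 14.0 and 14.0 CPM. The lowest DMSO library of CGNL1 (1.90 CPM) fell short of the filter on reads. CGNL1 was thus tested only because of the groups in which it was high, so its calls are a description. MARVELD3, a tight junction membrane protein gene related to OCLN, rose from 49.7 to 81.9, 91.6 and 115 CPM (adjusted p = 4.97e-07, 7.98e-09 and 7.93e-12). MAGI3, a scaffold gene, rose by 0.40, 0.98 and 0.95. LSR, the gene of angulin-1 at tricellular contacts, was lower with fulvestrant (−0.23 ± 0.09, adjusted p = 0.0329), a call that DESeq2 did not give (adjusted p = 0.0555). It was lost without DMSO replicate 1 or 2 or fulvestrant replicate 1 (adjusted p from 0.0529 to 0.288). Upper-quartile scaling, the unfiltered table, a fit of those groups alone and thinned libraries lost it too (adjusted p = 0.0521, 0.0646, 0.0917 and 0.0547).

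Desmosome genes, which anchor keratin filaments at cell contacts, had 9 of 12 tested, with 6 higher for abemaciclib, 8 for fulvestrant and 7 for the combination and 0 lower. PERP, a desmosomal membrane protein gene, rose from 21.3 CPM to 52.7, 86.9 and 74.0 CPM (adjusted p = 9.06e-10, 3.16e-14 and 2.76e-13). PPL, the gene of periplakin, rose from 15.1 to 31.1, 33.1 and 30.4 CPM. DSG2, a desmosomal cadherin gene named after its values were seen, measured 40.5 CPM in DMSO and 36.9, 35.1 and 34.6 CPM in the treated groups. None of these differences from DMSO passed (adjusted p = 0.363, 0.149 and 0.104). Of the gap junction genes only GJB1 was tested. It held at most 3 reads per DMSO library (mean 0.289 CPM), and averaged 2.50, 2.05 and 2.84 CPM in the treated groups. It was tested only because of the groups in which it was high, and its call was lost in all 3 comparisons with at least 10 counts in every library, in fits of the groups compared alone and on thinned libraries.

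**Figure D4:**
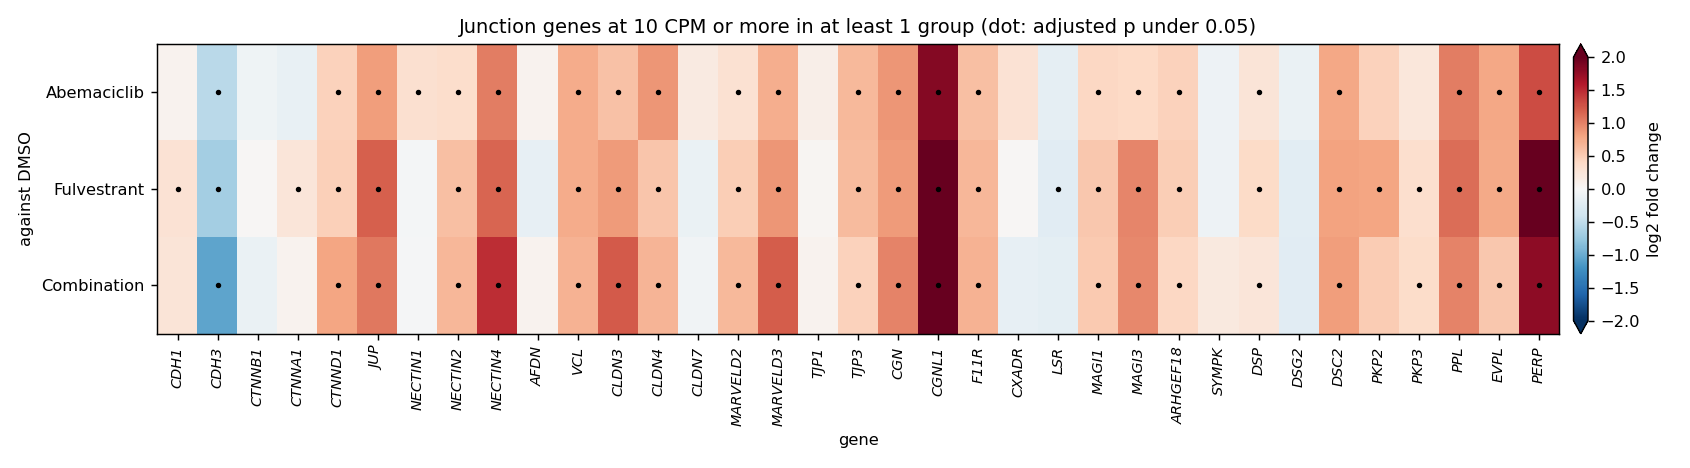
Log2 fold change against DMSO of the tested adherens junction, claudin, other tight junction and desmosome genes that reached 10 CPM in at least 1 group, 35 genes in all, with rows for treatments and dots for an adjusted p under 0.05; the colour scale ends at −2 and 2. Most columns are red in all rows, with CGNL1 and PERP the deepest (log2 fold changes of 2.00 and 2.02 with fulvestrant), while CDH3 is the deepest blue (−1.05 in the combination). CGNL1 was tested only because of the groups in which it was high.

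EPCAM was also set beside a list of partners, among them the tetraspanin gene CD9, the genes of the proteases matriptase and prostasin, and the protease inhibitor genes SPINT1 and SPINT2. All 7 genes, EPCAM included, were tested. With abemaciclib 5 were higher, with fulvestrant 7 and in the combination 5, and 0 were lower. Beside these, 41.2%, 51.0% and 55.2% of all genes passed in either direction. The abemaciclib count fell to 3 without DMSO replicate 1 or abemaciclib replicate 1. PRSS8, the gene of prostasin, rose from 54.4 to 101, 147 and 155 CPM (adjusted p = 3.42e-08, 1.22e-12 and 2.70e-13). SPINT2 rose by 1.04, 1.47 and 1.36, but its fulvestrant libraries ranged from 528 to 1284 CPM, and the abemaciclib call was lost without DMSO replicate 1 (0.86, adjusted p = 0.0885), DMSO replicate 2 or any abemaciclib library (adjusted p from 0.0546 to 0.0780). CD9 ranged from 150 to 947 CPM with fulvestrant, and its rise of 2.21 ± 0.64 (adjusted p = 0.0186) was lost without fulvestrant replicate 2 (1.70, adjusted p = 0.0643) or DMSO replicate 1 or 2 (adjusted p = 0.0599 and 0.0526).

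Polarity genes, which set the apical and basal sides of the cell, were mixed. Of 11 tested, 3 were higher and 1 lower with abemaciclib, 5 and 1 with fulvestrant, and 4 and 3 in the combination. These fell to 2 and 0 without abemaciclib replicate 3, and to 3 and 1 without combination replicate 2. Over all genes 41.2%, 51.0% and 55.2% passed in either direction, so the shares of this list were near those. PARD6B, the gene of an apical polarity scaffold, rose with abemaciclib from 133 to 296 CPM (1.15 ± 0.12, adjusted p = 4.88e-07). It fell to 87.4 CPM with fulvestrant (−0.61 ± 0.13, adjusted p = 6.23e-04) and to 102 CPM in the combination (adjusted p = 0.0150). The combination call was lost without DMSO replicate 2 or 3, or without combination replicate 1 or 2 (adjusted p up to 0.0921). LLGL2, a basolateral polarity gene, rose by 0.48, 0.65 and 0.66, and PRKCZ, the gene of an atypical protein kinase C, by 0.39, 0.55 and 0.67. PARD3 rose by 0.55 with fulvestrant and 0.44 in the combination, while DLG1 fell by 0.31 with abemaciclib, and PRKCI and SCRIB fell by 0.36 and 0.25 in the combination. PARD6A, named after its values were seen, rose by 0.40 with fulvestrant (adjusted p = 0.0467), a call not rechecked under the alternatives. Of the other smaller changes, those of PRKCZ and DLG1 with abemaciclib failed the test once at least 1 particular library was dropped (adjusted p up to 0.179). The same held for PARD3, PRKCI and SCRIB in the combination.

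**Figure D5:**
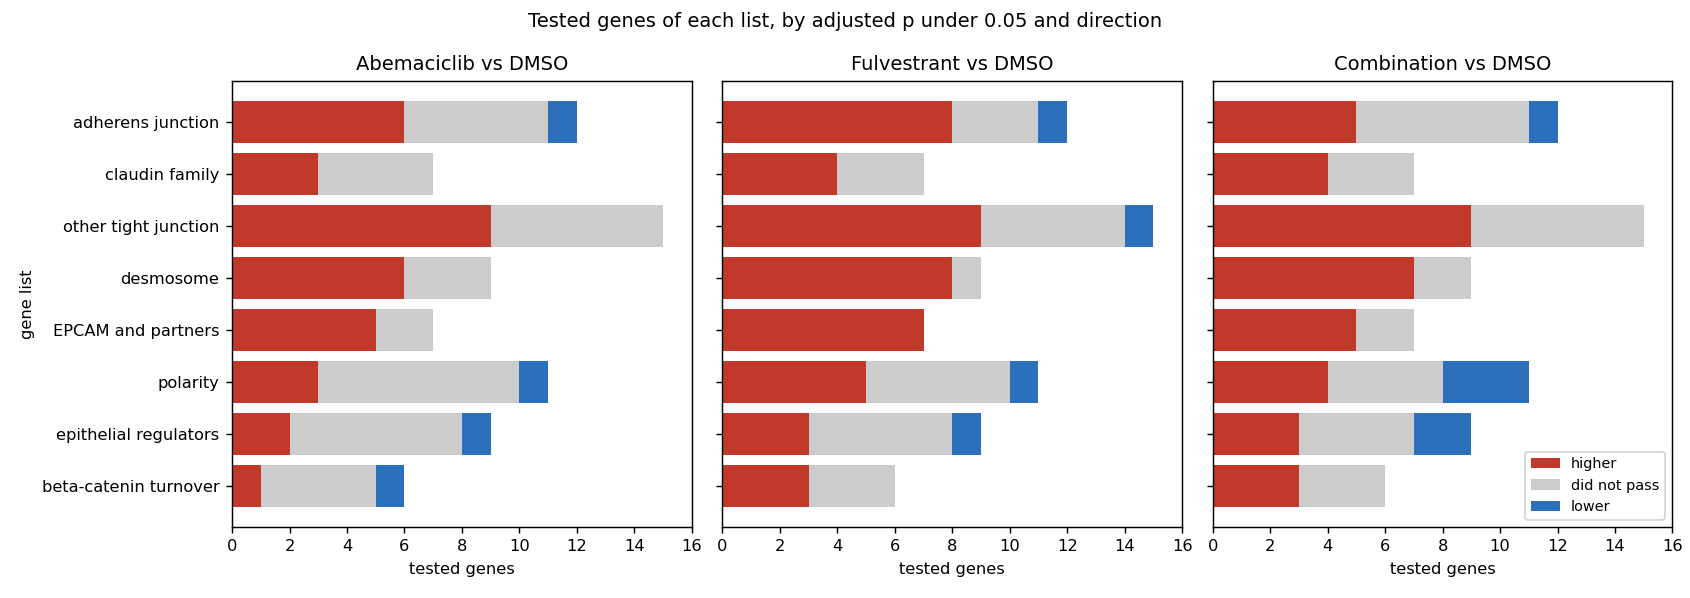
Number of tested genes in 8 lists that were higher (red), lower (blue) or did not pass (grey) against DMSO at an adjusted p under 0.05, with a panel for each treatment and lists on the vertical axis; all the junction lists but that of the desmosome, and the EPCAM list, include some of the 10 genes themselves. Red bars exceed blue ones for desmosome genes (6 and 0 with abemaciclib) and other tight junction genes (9 and 0), while polarity genes in the combination show 4 and 3. Over all genes tested 41.2% (abemaciclib), 51.0% (fulvestrant) and 55.2% (combination) passed in either direction.

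Regulators of the epithelial state were looked at beside the junction genes. Of 9 epithelial regulators tested, 2 were higher and 1 lower with abemaciclib, 3 and 1 with fulvestrant, and 3 and 2 in the combination. The shares of this list that passed were near those over all genes (41.2%, 51.0% and 55.2%). ELF3, an epithelial ETS factor gene, rose from 34.0 to 64.1 CPM with fulvestrant and 62.9 CPM in the combination (adjusted p = 2.01e-07 and 2.15e-07), and measured 35.7 CPM with abemaciclib. KLF4, a Krüppel-like factor gene below 10 CPM that was named after its values were seen, averaged 2.66 CPM in DMSO and 5.93, 5.61 and 5.69 CPM in the treated groups (adjusted p = 0.0160, 0.0268 and 0.0145). Its lowest DMSO library (1.48 CPM) fell short of the filter on reads. KLF4 was thus tested only because of the groups in which it was high, so its calls are a description. The regulators higher with abemaciclib numbered 1 without DMSO replicate 1 or abemaciclib replicate 2 or 3, and with at least 10 counts in every library. Those higher with fulvestrant numbered 1 without DMSO replicate 1 or fulvestrant replicate 2, and those higher in the combination 1 without DMSO replicate 1 and 2 without combination replicate 2. GRHL2, a grainyhead factor gene, rose by 0.34 ± 0.11 with abemaciclib (adjusted p = 0.0141), a call lost without DMSO replicate 3 or abemaciclib replicate 2 (adjusted p = 0.0790 and 0.0754). GRHL1 rose by 0.72 with fulvestrant and 0.68 in the combination, calls lost in several fits without 1 library (adjusted p up to 0.0976). ESRP1, a gene of epithelial splicing regulation, fell from 165 to 118, 124 and 113 CPM (adjusted p = 3.68e-05, 1.42e-04 and 2.87e-06). ESRP2 fell by 0.33 in the combination (adjusted p = 0.0404), a call lost with DESeq2 (adjusted p = 0.0767). It was also lost with upper-quartile scaling, in the unfiltered table and on thinned libraries (adjusted p = 0.0613, 0.0527 and 0.172). Leaving out DMSO replicate 1 or 3 or combination replicate 1 or 2 lost it too (adjusted p from 0.0687 to 0.161).

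Of 7 EMT factor genes, TWIST1 alone was tested, and it rose from 7.42 CPM to 11.9, 14.1 and 13.3 CPM (adjusted p = 0.00637, 2.92e-04 and 6.98e-04). SNAI1 had at most 7 reads in a library, SNAI2 and SNAI3 at most 4 and ZEB1 at most 3, and ZEB2 and TWIST2 had 0. Mesenchymal markers summed to 19.6 to 24.3 CPM in DMSO, 28.01 to 34.1 CPM with abemaciclib, 32.4 to 43.2 CPM with fulvestrant and 28.2 to 29.8 CPM in the combination. Of these 10 genes 2 were tested, with 1, 2 and 1 higher. COL3A1, a collagen gene below 10 CPM that was named after its values were seen, rose from 3.37 CPM to 9.02 CPM with fulvestrant. In the combination it reached 6.94 CPM, and neither call was rechecked under the alternatives. COL1A1, a collagen gene with a mean above 10 CPM in every group, rose by 0.45 with abemaciclib and 0.48 with fulvestrant. Neither rise passed with DESeq2 (adjusted p = 0.0798 and 0.0546). Both calls were also lost without DMSO replicate 1 or 3 and in other fits without 1 library (adjusted p up to 0.134 and 0.0917).

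Genes that control β-catenin protein were examined because CTNNB1 RNA passed nowhere. Of 6 turnover genes 1 was higher and 1 lower with abemaciclib, and 3 were higher with fulvestrant and in the combination. Such shares were near the 41.2%, 51.0% and 55.2% of all genes that passed. CSNK1A1, the gene of casein kinase 1α, which primes β-catenin for destruction, rose from 570 to 989 and 1060 CPM with fulvestrant and the combination (adjusted p = 1.17e-06 and 1.97e-07). APC, a destruction complex gene, rose by 0.52 and 0.61, and GSK3B by 0.31, 0.46 and 0.65 over the 3 treatments. GSK3A fell by 0.34 with abemaciclib, which did not pass with DESeq2 (adjusted p = 0.0588) or in the unfiltered table (adjusted p = 0.0520). It also failed without DMSO replicate 1 or 2 or abemaciclib replicate 1 or 3 (adjusted p up to 0.144). Of 10 Wnt feedback targets 3 were tested, with 1 higher in each comparison and 1, 0 and 1 lower. SP5, the higher one, named after its values were seen, held at most 22 reads in a library. It averaged 0.300, 1.43, 4.46 and 2.64 CPM in DMSO, abemaciclib, fulvestrant and combination. It was tested only because of the groups in which it was high, so its calls are a description. With abemaciclib 0 were higher with DESeq2, with at least 10 counts in every library, in a fit of those groups alone, and without DMSO replicate 1 or 2 or abemaciclib replicate 1 or 3. ZNRF3 fell by 0.52 with abemaciclib and 0.43 in the combination, neither passing with DESeq2 (adjusted p = 0.0680 and 0.114). Both calls were also lost in several fits without 1 library (adjusted p up to 0.167 and 0.327). AXIN2, a classical target, had 1 read over all libraries. Of the untested targets, LEF1 and TCF7, named after their values were seen, were lower in each treated group. LEF1 went from 1.55 to 0.358, 0 and 0 CPM, and TCF7 from 2.68 to 1.11, 1.04 and 1.25 CPM. NOTUM and APCDD1 were higher in some treated groups and lower in others.

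Of 6 luminal markers 3 were higher and 1 lower with abemaciclib, 3 and 0 with fulvestrant, and 2 and 2 in the combination. Among all genes 41.2%, 51.0% and 55.2% passed in either direction. KRT19 rose from 1375 to 2418, 1983 and 1963 CPM. KRT8 and KRT18, which form the filaments to which desmosomes attach, rose with abemaciclib by 0.50 and 0.37 and fell in the combination by 0.40 and 0.32. GATA3 rose by 0.29 with fulvestrant and in the combination, calls lost without fulvestrant replicate 3 (adjusted p = 0.0592) and combination replicate 1 (adjusted p = 0.0541). Its fall of 0.23 with abemaciclib was lost with DESeq2 (adjusted p = 0.0573) and upper-quartile scaling (adjusted p = 0.0644). A fit with replicate number as a block lost it too (adjusted p = 0.0502). So did leaving out DMSO replicate 1 or 2 or any abemaciclib library (adjusted p up to 0.155). FOXA1 rose by 0.54 with fulvestrant. What the shifts of these markers contribute to the junction genes was not tested.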

How the data were processed

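The authors trimmed reads with BBDuk, aligned them with STAR to hg38 and counted them per gene with featureCounts 2.0.1 on a GENCODE annotation. The deposited table holds raw counts, not normalised, for 60656 rows, of which 44 had no gene name and 0 reads. The strand setting was not given in the sources used here. No molecular identifiers are named, so floors cover counting error only.

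Members, gene lists and tests were chosen with earlier results of these data known. All 12 libraries entered a single edgeR 4.0.16 fit (R 4.3.3, limma 3.58.1) with a mean per group, TMM scaling, filterByExpr (minimum count 10, total 15) and the robust quasi-likelihood F test, two-sided, with Benjamini-Hochberg adjustment over 11803 genes and a threshold of 0.05. The common biological coefficient of variation was 0.0918. DESeq2 1.42.0, the study's own kind of test, was an alternative, beside other scalings, filters, thinning and leaving out each library. Errors of log2 values are SE. Named genes were all 10 members and, per list and comparison with DMSO, up to 3 risen and 3 fallen called genes with the largest change and at least 10 CPM in a group. An exact permutation test of 3 against 3 libraries cannot give a p below 0.1 and was not used.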

Additional observations from a re-analysis of the deposited data

Results flagged for a closer look

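For 3 genes the change with abemaciclib differed between cells with and without fulvestrant, by the interaction term of the fit over all libraries. The difference was −0.77 on the log2 scale for CLDN4, −0.82 for TJP3 and −0.58 for F11R. Each kept its sign and passed under every alternative run. These 3 made up 30% of the junction and adhesion genes followed. Of all genes tested, 21.1% passed the interaction in either direction. The share of the junction and adhesion genes was thus near that over all genes and does not set them apart.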

How the results depend on the processing

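Of 1023 recomputed values for the 10 genes, 952 kept their direction and side of the threshold, 33 lost the call, 9 gained it and 29 changed sign, 0 of them among called values. Of 26 called results, 21 kept the call under every alternative. The number of the 10 genes called between combination and fulvestrant fell from 1 to 0 with at least 10 counts in every library and in a fit of those groups alone, and ran from 0 to 1 when a library was left out. Over all genes that comparison gave 227 calls, against 91 and 125 under those settings, 588 without fulvestrant replicate 3 and 146 without combination replicate 3. Between the single drugs 2 were called with DESeq2, and 2 to 3 when a library was left out.

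Values that changed sign were small. With upper-quartile scaling OCLN, Combination vs DMSO was 0.0124. On thinned libraries TJP1, Combination vs Abemaciclib was 0.0021 and CDH1, Combination vs Fulvestrant was 0.0155. With a library left out, CDH1 ranged from −0.0645 to 0.172 (abemaciclib against DMSO), from −0.113 to 0.0449 (combination against fulvestrant) and from −0.209 to 0.0284 (interaction). CTNNB1 ranged from −0.0208 to 0.0806 for fulvestrant against DMSO. TJP1 ranged from −0.0200 to 0.0849 (fulvestrant against DMSO), −0.0239 to 0.173 (combination against DMSO), −0.152 to 0.0448 (combination against abemaciclib) and −0.0792 to 0.117 (combination against fulvestrant). CLDN7 ranged from −0.184 to 0.0642 (combination against DMSO), −0.0296 to 0.194 (combination against fulvestrant) and −0.213 to 0.0103 (interaction). OCLN ranged from −0.228 to 0.153 (combination against DMSO) and −0.159 to 0.653 (interaction). F11R ranged from −0.0843 to 0.113 (combination against fulvestrant) and −0.172 to 0.0255 (single drugs), and TJP3 from −0.0932 to 0.0854 (single drugs). The cause was not tested.

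Replicate numbers did not pair the libraries: deviations of same-numbered libraries correlated between −0.215 and 0.119 over 18 pairs, 2 of them over 0.1, and 5 of 12 libraries correlated best with their own number. With the number as a replicate block, 4, 6, 5, 3, 1, 4 and 3 of the 10 genes were called in the 7 comparisons, and no call changed. OCLN, with 6 to 21 reads, was limited by depth.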
